A study of Canis lupus familiaris with 8 samples.

Results

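AURKA, PLK1, CCNA2, CCNB2, CDC25C and CDCA8 are 6 genes of mitotic entry and chromosome segregation, out of 32704 genes in the count table. The cells were MDCK I, a line of epithelial cells from dog kidney. The 6 genes were picked by name: each is a gene whose symbol the supplementary list of the study pairs with an Ensembl identifier. That list of 989 genes, 860 of them with a symbol, holds genes that the study had called in these same libraries, so a change of the 6 genes with hyperosmolality and with each Nfat5-siRNA was built into the choice and is described here, not offered as independent evidence. The study describes its list as genes raised by hyperosmolality and lowered by both constructs, but in the counts the list holds other directions too. Of the 860 genes with a symbol, 857 were called in all 3 of these comparisons by DESeq2, 397 (46.2%) were higher in value with hyperosmolality and lower with both constructs, and 163 (19.0%), the 6 among them, were lower in all 3. With both constructs 560 were lower in value and 299 higher, so all but 1 went the same way with each. All 6 genes passed the filter on low counts (5 or more counts in the 8 libraries together), which left 19835 genes for the tests.

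The libraries of poly(A) RNA formed 4 groups of 2. Neg-siRNA (300 mOsm) cells, the isosmotic control, stayed in normal medium. The other 3 groups spent the last 24 h at 500 mOsm in medium made hyperosmotic with raffinose, a sugar: Neg-siRNA (500 mOsm), the hyperosmotic control, and the groups named after the constructs Nfat5-1-siRNA and Nfat5-2-siRNA. Every group received siRNA at 100 nM. Neg-siRNA is directed against Slc22a6, a gene described as not expressed in these cells, and both constructs are directed against Nfat5, the transcription factor known for switching on osmolyte genes in hyperosmotic kidney cells. The replicates of each group are 2 passages of a single line, 15 for replicate 1 and 17 for replicate 2, and no group received an Nfat5-siRNA at 300 mOsm. Total counts of replicates 1 and 2 were 44515340 and 34564103 for the isosmotic control, 41742578 and 43971253 for the hyperosmotic control, 46043788 and 45111348 for Nfat5-1-siRNA, and 37488252 and 39036966 for Nfat5-2-siRNA.

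A cell enters mitosis when cyclin-dependent kinase 1, bound to a cyclin of the A or B type, is freed of inhibitory phosphates by a CDC25 phosphatase. PLK1 and AURKA, a pair of serine/threonine kinases, feed into this switch and then build the spindle, while the chromosomal passenger complex, to which CDCA8 belongs, corrects the attachment of chromosomes to it. The mRNAs of these genes are known to be low in resting cells and to peak in G2 and mitosis, so in RNA from a whole culture fewer cells in those phases and less of the mRNA in each cell cannot be told apart.

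The osmolyte genes, known targets of Nfat5, are given beside the labels, because the tables used here pair no identifier with Nfat5 itself, whose own mRNA level was therefore not analysed here. SLC6A6, the taurine transporter, stood at 250.1 and 208.8 CPM (the count scaled to a fixed library total after TMM normalization) in the isosmotic control and at 3351 and 2449 CPM in the hyperosmotic control. With Nfat5-1-siRNA it was at 1363 and 1011 CPM, and with Nfat5-2-siRNA at 1179 and 917.8 CPM. The betaine transporter SLC6A12 and the aldose reductase gene AKR1B1 were also lowest in the isosmotic control and highest in the hyperosmotic control. All 3 genes were called higher with hyperosmolality (11.3% of all genes) and lower with Nfat5-1-siRNA (4.53%) and Nfat5-2-siRNA (7.38%). They come from the same list of genes called in these libraries, so they are no independent check of the labels, and they do not tell the constructs apart (log2 differences of −0.18, −0.18 and 0.11, adjusted p = 1 for each). Of 8 epithelial markers only CLDN1, a tight junction gene, had an identifier, at 167.9 ± 52.11, 11.6 ± 2.85, 90.7 ± 10.1 and 71.3 ± 49.6 CPM (mean ± SD, n = 2) in the order of groups given above. The fibroblast marker PDGFRA was at 34.1 ± 3.60, 62.0 ± 8.97, 32.2 ± 2.10 and 30.9 ± 4.38 CPM in that order, neither leukocyte nor endothelial markers had an identifier, and the part of these 2 markers in the results below was not tested.

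All 6 genes had their highest levels in the isosmotic control, lower ones in the hyperosmotic control, and the lowest ones with the Nfat5-siRNAs. Summed, they took 548 and 617.2 CPM in the isosmotic control, 270.6 and 234.1 CPM in the hyperosmotic control, 117.5 and 101.6 CPM in Nfat5-1-siRNA, and 98.1 and 101.3 CPM in Nfat5-2-siRNA. For each gene, the libraries did not overlap between the isosmotic control, the hyperosmotic control and the Nfat5-siRNAs, while those of the 2 constructs overlapped for 4 of the 6. With hyperosmolality 5 of the 6 genes were called lower (Benjamini-Yekutieli adjusted p under 0.05 in edgeR's quasi-likelihood test), against 9.23% of all tested genes called lower in that comparison. Nfat5-1-siRNA lowered 5 of 6, against 4.53% of all genes, and Nfat5-2-siRNA lowered 5 of 6, against 7.38%. None was called higher, beside 11.3%, 3.4% and 4.67% of all genes in the order hyperosmolality, Nfat5-1-siRNA and Nfat5-2-siRNA. With the passage as a replicate block, 6 of 6 were called in each of the 3 comparisons, against 15.7%, 11.9% and 15.3% of all genes. In the same order, the median log2 fold changes of the 6 genes were −1.09, −1.34 and −1.50, beside medians of 0.00, −0.07 and −0.03 over all genes tested. These comparisons share libraries: the hyperosmotic control enters all 3 of them.

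**Figure D1:**
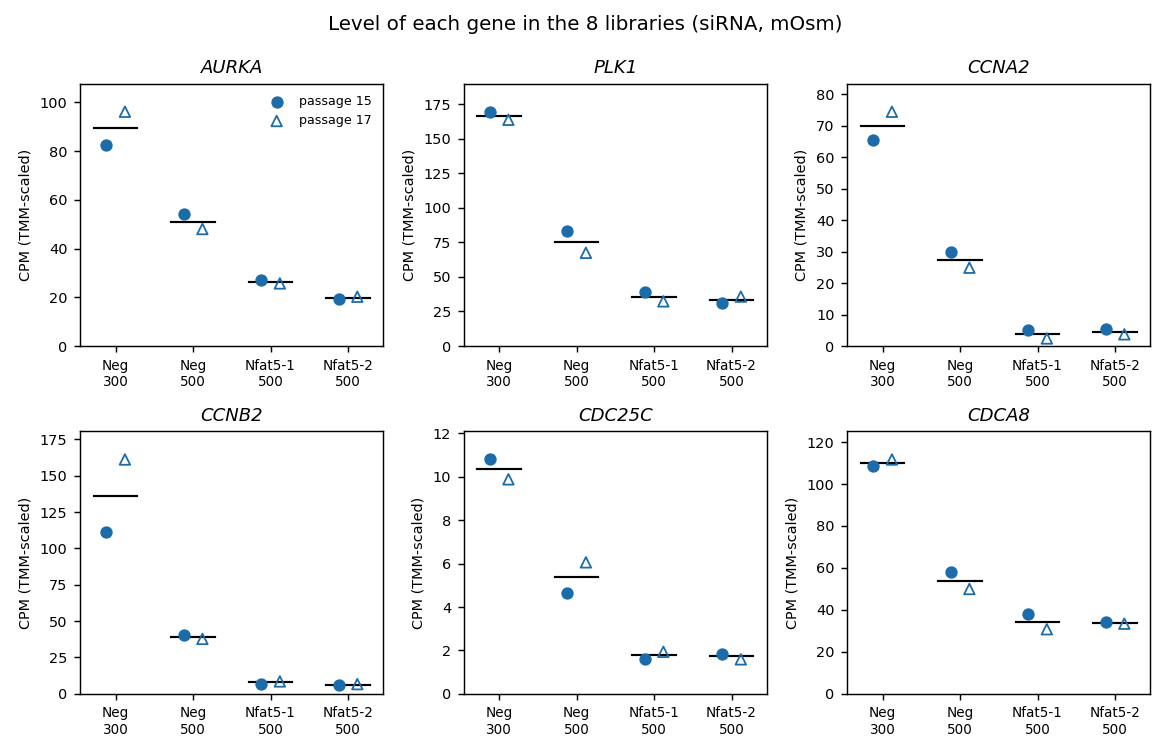
Level of each of the 6 genes in the 8 libraries, in CPM on linear axes that start at 0. Filled circles are passage 15, open triangles are passage 17 and bars are the means of the 2 libraries of a group. For every gene both isosmotic control libraries lie above both hyperosmotic control libraries, which lie above the 4 Nfat5-siRNA libraries.

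AURKA (ENSCAFG00000029331, CanFam3.1 chromosome 24, 41585941 to 41600617, minus strand, 8 exons with 1227 bases) encodes Aurora kinase A, which acts at the centrosomes and spindle poles. It stood at 82.6 and 96.2 CPM in the isosmotic control, 54.1 and 48.0 CPM in the hyperosmotic control, 27.2 and 25.7 CPM in Nfat5-1-siRNA, and 19.5 and 20.2 CPM in Nfat5-2-siRNA. No libraries of different groups overlapped. AURKA fell by 0.81 ± 0.15 on the log2 scale (estimate ± SE) with hyperosmolality (edgeR adjusted p = 0.00838). Nfat5-1-siRNA lowered it by a further log2 fold change of −0.95 ± 0.15 (adjusted p = 0.00763) and Nfat5-2-siRNA by −1.36 ± 0.15 (adjusted p = 0.000454). The hyperosmotic call was lost without replicate 2 of the isosmotic control (adjusted p = 0.122) or without replicate 2 of the hyperosmotic control (adjusted p = 0.0868). That of Nfat5-1-siRNA was lost without any 1 of the 4 libraries compared, with adjusted p = 0.123 and 0.0568 without replicates 1 and 2 of the hyperosmotic control and 0.103 and 0.256 without those of Nfat5-1-siRNA.

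PLK1 (ENSCAFG00000017658, chromosome 6, 22150596 to 22176450, minus strand, 11 exons with 1826 bases) encodes Polo-like kinase 1, which promotes mitotic entry, centrosome maturation and cytokinesis. Its levels were 169.4 and 163.6 CPM in the isosmotic control, 83.4 and 67.4 CPM in the hyperosmotic control, 38.8 and 32.3 CPM in Nfat5-1-siRNA, and 31.3 and 35.7 CPM in Nfat5-2-siRNA. The Nfat5-2-siRNA libraries spanned nearly the same range as the Nfat5-1-siRNA ones. The log2 fold changes of PLK1 were −1.14 ± 0.16 with hyperosmolality (adjusted p = 0.000965), −1.08 ± 0.16 with Nfat5-1-siRNA (adjusted p = 0.0051) and −1.17 ± 0.16 with Nfat5-2-siRNA (adjusted p = 0.00196), each within 1 SE of the others. The call with Nfat5-1-siRNA was lost without replicate 1 of the hyperosmotic control (adjusted p = 0.0888) or replicate 2 of Nfat5-1-siRNA (adjusted p = 0.231), and that with Nfat5-2-siRNA without replicate 1 of the hyperosmotic control (adjusted p = 0.0514).

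CCNA2 (ENSCAFG00000004133, chromosome 19, 18318004 to 18323422, plus strand, 8 exons with 1299 bases) encodes cyclin A2, the partner of cyclin-dependent kinases from S phase to early mitosis. Its levels were 65.5 and 74.5 CPM in the isosmotic control and 29.8 and 24.9 CPM in the hyperosmotic control. With Nfat5-1-siRNA they were 5.07 and 2.40 CPM, and with Nfat5-2-siRNA 5.47 and 3.72 CPM. Replicate 2 of Nfat5-1-siRNA was the lowest library, with 113 counts, and lay 1.06 below replicate 1 on the log2 scale. Hyperosmolality lowered CCNA2 by a log2 fold change of −1.36 ± 0.27 (adjusted p = 0.0142), Nfat5-1-siRNA by −2.87 ± 0.29 (adjusted p = 0.000436), and Nfat5-2-siRNA by −2.57 ± 0.29 (adjusted p = 0.000486). The fall with Nfat5-1-siRNA, 7.32-fold, moved with the library left out, to a log2 fold change of −3.50 without replicate 1 of that construct and to −2.43 without replicate 2.

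The siRNA calls of CCNA2 held without any single library, with adjusted p of at most 0.0158 for Nfat5-1-siRNA and 0.0192 for Nfat5-2-siRNA. Its hyperosmotic call was lost without replicate 2 of the isosmotic control (adjusted p = 0.146) and without replicate 1 or 2 of the hyperosmotic control (adjusted p = 0.0878 and 0.189). CCNA2 also shares 183 of its exonic bases (14.1%) with ENSCAFG00000004139 on the opposite strand, and reads were counted without regard to strand. That neighbour had between 1568 and 1937 counts in every library and a log2 fold change of −0.10 ± 0.16, −0.10 ± 0.16 and 0.04 ± 0.16 in the 3 comparisons (adjusted p = 1 in each). None of the other 5 genes shares exonic bases with another gene of the table.

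CCNB2 (ENSCAFG00000016600, chromosome 30, 24040793 to 24063408, plus strand, 9 exons with 1868 bases) encodes cyclin B2, an activator of cyclin-dependent kinase 1. It stood at 111.1 and 161.2 CPM in the isosmotic control, the widest gap between replicates of this group, and at 40.7 and 37.8 CPM in the hyperosmotic control. With Nfat5-1-siRNA it was at 7.07 and 8.49 CPM, and with Nfat5-2-siRNA at 5.71 and 6.63 CPM. All 4 Nfat5-siRNA libraries were below both hyperosmotic control libraries. CCNB2 had the largest fall of the 6 genes with hyperosmolality, −1.80 ± 0.19 on the log2 scale (adjusted p = 9.64e-05). With Nfat5-2-siRNA the log2 fold change was −2.67 ± 0.20 (adjusted p = 4.22e-05), and with Nfat5-1-siRNA it was −2.33 ± 0.20 (adjusted p = 0.00013). None of these calls was lost when any single library was left out. CCNA2 and CCNB2 had the 2 largest falls of the 6 genes with each construct, and which of them was larger changed with the library left out.

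CDC25C (ENSCAFG00000001220, chromosome 11, 25904497 to 25934503, minus strand, 13 exons with 1431 bases) encodes the phosphatase that activates cyclin-dependent kinase 1 at mitotic entry. It was the least abundant of the 6 genes, with 67 to 480 counts per library, and stood at 10.8 and 9.89 CPM in the isosmotic control and at 4.67 and 6.06 CPM in the hyperosmotic control. In Nfat5-1-siRNA it was at 1.61 and 1.94 CPM, and in Nfat5-2-siRNA at 1.86 and 1.59 CPM. With hyperosmolality its log2 fold change was −0.95 ± 0.25, which did not pass the test (edgeR adjusted p = 0.105) although the libraries did not overlap. With the replicate block it did (adjusted p = 0.00797), and so it did in DESeq2 (adjusted p = 0.0365). Nfat5-1-siRNA lowered CDC25C by a log2 fold change of −1.59 ± 0.27 (adjusted p = 0.0115) and Nfat5-2-siRNA by −1.64 ± 0.27 (adjusted p = 0.00665). Those calls were lost without replicate 2 of the hyperosmotic control (adjusted p = 0.207 and 0.15), without replicate 1 or 2 of Nfat5-1-siRNA for that construct (adjusted p = 0.204 and 0.190), and without replicate 2 of Nfat5-2-siRNA for the other (adjusted p = 0.0810).

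CDCA8 (ENSCAFG00000003278, chromosome 15, 4796845 to 4809921, minus strand, 10 exons with 2452 bases) encodes borealin, a subunit that helps to place the chromosomal passenger complex on centromeres. Its levels were 108.4 and 111.7 CPM in the isosmotic control, 57.9 and 49.9 CPM in the hyperosmotic control, 37.8 and 30.8 CPM in Nfat5-1-siRNA, and 34.2 and 33.4 CPM in Nfat5-2-siRNA. The hyperosmotic fall of CDCA8, −1.03 ± 0.15 on the log2 scale (adjusted p = 0.00165), was larger in value than its differences with both Nfat5-siRNAs. These were −0.65 ± 0.15 with Nfat5-1-siRNA (adjusted p = 0.0893) and −0.67 ± 0.15 with Nfat5-2-siRNA (adjusted p = 0.0578), so neither passed the test. Both passed with the replicate block (adjusted p = 0.000407 and 0.000225) and in DESeq2 (adjusted p = 0.0179 and 0.0162). The sizes of the falls were not tested against each other.

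The direction was the same in each passage taken alone. Within passage 15 the log2 differences with hyperosmolality ran from −1.45 for CCNB2 to −0.61 for AURKA, and within passage 17 from −2.09 for CCNB2 to −0.70 for CDC25C. With Nfat5-1-siRNA they ran from −2.54 for CCNA2 to −0.61 for CDCA8 in passage 15, and from −3.35 for CCNA2 to −0.70 for CDCA8 in passage 17. With Nfat5-2-siRNA they ran from −2.82 for CCNB2 to −0.76 for CDCA8 in passage 15, and from −2.73 for CCNA2 to −0.58 for CDCA8 in passage 17. AURKA, CCNB2, CCNA2, PLK1 and CDCA8 all had a deeper hyperosmotic fall in passage 17 than in passage 15, and CDC25C a shallower one. In all, 4 of the 6 genes (AURKA, PLK1, CCNA2 and CCNB2) were called lower in all 3 comparisons, as were 115 of the 19835 tested genes (0.58%). With the replicate block 6 of 6 were, beside 387 genes (1.95%).

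**Figure D2:**
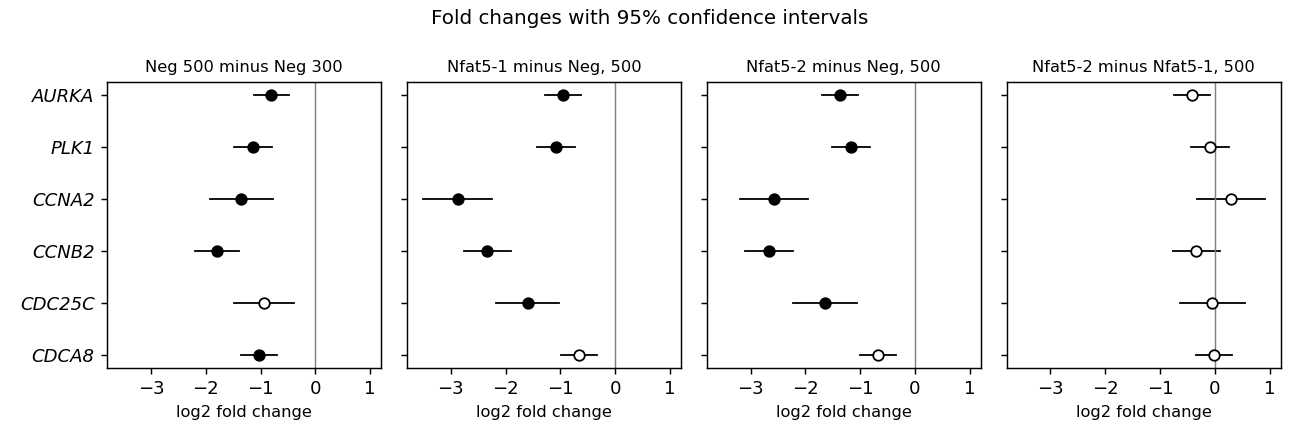
Log2 fold changes of the 6 genes in 4 comparisons with their 95% confidence intervals from the edgeR fit. Filled points passed an adjusted p of 0.05 and open points did not. CCNA2 and CCNB2 lie farthest to the left in both siRNA comparisons, and the points of the comparison between constructs lie from −0.41 to 0.30.

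The comparison of Nfat5-2-siRNA with Nfat5-1-siRNA asked whether the constructs left the genes at the same level. The choice of genes bears on it too, since the list took genes called with both constructs in these same 4 siRNA libraries, nearly all in the same direction with each, so its values are a description. None of the 6 genes was called (adjusted p = 1 for each), in a comparison that called 0.0101% of all genes lower and 0.0302% higher with Nfat5-2-siRNA. At an unadjusted p under 0.05, 1 of the 6 passed, AURKA, beside 14.9% of all genes. DESeq2 also called 0 of the 6 (0.398% of all genes lower, 0.676% higher), as did the replicate block (2.55% lower, 2.39% higher) and the Benjamini-Hochberg adjustment (0.368% lower, 0.57% higher). AURKA was lower with Nfat5-2-siRNA in both passages, with a log2 fold change of −0.41 and a 95% confidence interval from −0.73 to −0.09 (unadjusted p = 0.0163, adjusted p = 0.426 with the replicate block). CCNB2 was lower with Nfat5-2-siRNA in both passages too, at −0.33, with an interval from −0.76 to 0.09. The interval ran from −0.43 to 0.26 for PLK1, from −0.35 to 0.31 for CDCA8, and from −0.63 to 0.55 for CDC25C. It was widest for CCNA2, from −0.33 to 0.92 around 0.30. For PLK1, CCNA2, CDC25C and CDCA8 the libraries of the 2 constructs overlapped. A p that misses the threshold does not show that the constructs act alike, and the intervals give the differences that these libraries leave possible.

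Against the isosmotic control, which adds the hyperosmotic and the siRNA steps, all 6 genes were called lower with Nfat5-1-siRNA, beside 12.2% of all genes, and all 6 with Nfat5-2-siRNA, beside 12.9%. These values follow from the comparisons already given and add no new libraries. CCNA2 was 18.7-fold lower with Nfat5-1-siRNA and 15.2-fold lower with Nfat5-2-siRNA, and CCNB2 17.5-fold and 22.1-fold lower. With 1 library left out, the log2 fold change of CCNA2 with Nfat5-1-siRNA ranged from −4.86, without replicate 1 of that construct, to −3.79. CDC25C was 5.82-fold and 6.0-fold lower, PLK1 4.69-fold and 4.97-fold, and AURKA 3.38-fold and 4.50-fold. CDCA8 was 3.21-fold and 3.25-fold lower. The cyclin genes thus had the largest total falls.

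As a share of the mean level in the isosmotic control, the cyclin mRNAs that remained were 39.1% of CCNA2 and 28.8% of CCNB2 in the hyperosmotic control. With the Nfat5-siRNAs 5.34% and 6.56% of CCNA2 and 5.71% and 4.53% of CCNB2 remained, in the order Nfat5-1 and Nfat5-2. The 5.34% is a mean over the unequal libraries at 5.07 and 2.40 CPM. For CDC25C 51.9% remained in the hyperosmotic control, and 17.1% and 16.6% with the constructs. The kinases were at 57.1% (AURKA) and 45.3% (PLK1) in the hyperosmotic control, and with the constructs at 29.6% and 22.2% for AURKA and 21.3% and 20.1% for PLK1. CDCA8 was at 49.0%, 31.2% and 30.7%. On the log2 scale, the hyperosmotic step made up 61.2% of the fall of CDCA8 to the Nfat5-1-siRNA level and 60.5% of that to the Nfat5-2-siRNA level, the highest shares of the 6 genes. Those of CCNA2 were 32.1% and 34.5%, and PLK1 was close to an even split, at 51.3% and 49.4%.

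**Figure D3:**
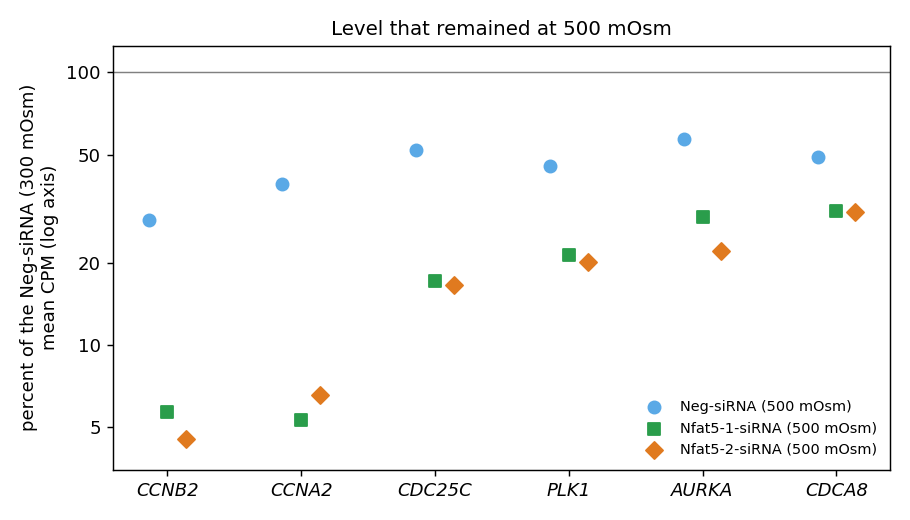
Mean CPM of each gene in the 3 groups at 500 mOsm as a percent of its mean in the isosmotic control, on a log axis, with the line at 100 percent. Each point is a ratio of means of 2 libraries and has no error bar. The cyclin genes drop to between 4.53 and 6.56 percent with the Nfat5-siRNAs, and CDCA8 stays above 30 percent.

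The order of the genes by level changed between the groups. Per kilobase of exon, the levels in the isosmotic control were 91.2 ± 2.25 CPM for PLK1, 72.9 ± 19.0 for CCNB2, 72.9 ± 7.81 for AURKA, 53.9 ± 4.88 for CCNA2, 44.9 ± 0.952 for CDCA8 and 7.23 ± 0.450 for CDC25C (mean ± SD, n = 2). Only CCNB2 and AURKA overlapped there. In the hyperosmotic control AURKA (41.6 ± 3.52) and PLK1 (41.3 ± 6.20) overlapped, as did CDCA8 (22 ± 2.3), CCNA2 (21.1 ± 2.65) and CCNB2 (21 ± 1.1), and CDC25C was lowest (3.75 ± 0.688). With Nfat5-1-siRNA the cyclin genes had dropped well below CDCA8: AURKA was at 21.6 ± 0.845, PLK1 at 19.5 ± 2.49, CDCA8 at 14 ± 2.04, CCNB2 at 4.16 ± 0.539, CCNA2 at 2.88 ± 1.45 and CDC25C at 1.24 ± 0.161 CPM per kilobase. AURKA overlapped with PLK1 there, and CCNB2 with CCNA2. With Nfat5-2-siRNA the values were 18.4 ± 1.71 for PLK1, 16.2 ± 0.411 for AURKA, 13.8 ± 0.237 for CDCA8, 3.54 ± 0.955 for CCNA2, 3.30 ± 0.349 for CCNB2 and 1.2 ± 0.133 for CDC25C, and only the cyclin genes overlapped. CCNB2, level with AURKA in isosmotic control cells, was thus below it in every library of the other groups.

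Lists of related cell cycle genes held 100 genes other than the 6, and 21 of these had an identifier in the same supplementary list, so they too had been called by the study. With hyperosmolality 13 of the 21 were called lower and 6 higher, where 9.23% of all genes were called lower and 11.3% higher. With Nfat5-1-siRNA 13 were called lower and 1 higher (4.53% and 3.4% of all genes), and with Nfat5-2-siRNA 16 lower and 1 higher (7.38% and 4.67% of all genes). Since the list was chosen in these comparisons, nothing is read from the excess over all genes. Their median log2 fold changes were −0.74, −1.19 and −1.21. With the replicate block the counts were 15 and 6 with hyperosmolality (15.7% and 17.3% of all genes), 18 and 3 with Nfat5-1-siRNA (11.9% and 9.61%), and 18 and 3 with Nfat5-2-siRNA (15.3% and 10.7%). Between the constructs edgeR called 0 of the 21, with 6 at an unadjusted p under 0.05 (14.9% of all genes), and DESeq2 (0.398% of all genes lower, 0.676% higher) and the replicate block (2.55% lower, 2.39% higher) called 2 each, MYBL2 as lower and SFN as higher with Nfat5-2-siRNA. CDK1, CCNB1, AURKB, INCENP, BIRC5, BORA, FOXM1, WEE1, CDC20 and CDKN1A, partners or regulators of the 6 genes, were not analysed here, because no table used here pairs them with an identifier.

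Of the 6 kinase cofactors listed, TPX2 and TACC3 had an identifier, through the list already called in these comparisons. Both were called lower in all 3 comparisons, as were 0.58% of all genes. TPX2, which activates AURKA on spindle microtubules, had a mean of 250.7 CPM in the isosmotic control, 150.1 in the hyperosmotic control, 56.5 with Nfat5-1-siRNA and 42.4 with Nfat5-2-siRNA. Its log2 fold changes were −0.74 ± 0.16 (adjusted p = 0.0307), −1.41 ± 0.17 (adjusted p = 0.00117) and −1.82 ± 0.17 (adjusted p = 0.000118). TACC3, a spindle protein that AURKA phosphorylates, went from 189.5 to 61.7 CPM with hyperosmolality and to 12.9 and 15.2 CPM with the constructs, with log2 fold changes of −1.62 ± 0.17, −2.26 ± 0.17 and −2.02 ± 0.17, all called.

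Among the genes of the anaphase-promoting complex, which marks cyclins for destruction, and of late cell cycle transcription, UBE2C, the ubiquitin-conjugating enzyme that works with the complex, was called lower in all 3 comparisons, with log2 fold changes of −1.21, −1.13 and −1.11. FBXO5, an inhibitor of that complex, had −1.21, −1.20 and −1.50, and its value with Nfat5-1-siRNA did not pass the test (adjusted p = 0.0585), but passed with the replicate block (adjusted p = 3.11e-07) and in DESeq2 (adjusted p = 0.00263). ANAPC4, a subunit of the complex, rose by 1.59 with hyperosmolality and had −0.66 and −0.92 with the constructs, of which the first did not pass (adjusted p = 0.0527, or 0.000111 with the replicate block). MYBL2, a transcription factor of the complex that drives late cell cycle genes, had −0.74, −0.59 and −1.21, and its value with Nfat5-1-siRNA did not pass either (adjusted p = 0.0836, or 0.000761 with the replicate block and 0.0056 in DESeq2). The log2 difference of MYBL2 between the constructs was −0.62 (adjusted p = 0.585), and it was called with the replicate block (adjusted p = 0.00231).

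Of 10 listed cyclins, 4 had an identifier, through the list already called in these comparisons, and CCNB1, CCND1 and CCND3 were among those without one. The only D-type cyclin with an identifier had positive values in all 3 comparisons. The A-type and B-type cyclins with an identifier had negative ones. CCNB3, the B-type cyclin with an identifier besides CCNB2, had log2 fold changes of −3.34, −1.61 and −1.41. The last did not pass (adjusted p = 0.0584), but did with the replicate block (adjusted p = 5.51e-05). CCND2, which acts with its kinases in G1, had means of 164.4 CPM in the isosmotic control, 313.6 in the hyperosmotic control, 509.3 with Nfat5-1-siRNA and 478.8 with Nfat5-2-siRNA. It rose by 0.93 ± 0.16 on the log2 scale with hyperosmolality (adjusted p = 0.00572). Its log2 fold changes of 0.70 ± 0.16 and 0.61 ± 0.16 with the constructs did not pass the test (adjusted p = 0.0823 and 0.136), and both did with the replicate block (adjusted p = 5.03e-05 and 0.000605).

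A few further genes were singled out after their values had been seen. The checkpoint kinase genes BUB1 and BUB1B were called lower in all 3 comparisons, as were 0.58% of all genes. Their log2 fold changes were −1.46, −2.25 and −2.46 for BUB1 and −1.59, −1.99 and −2.10 for BUB1B. TTK, also a checkpoint kinase, had −1.45, −1.19 and −1.68, and its value with Nfat5-1-siRNA did not pass (adjusted p = 0.0551, or 1.47e-08 with the replicate block). CDKN3, a phosphatase of cyclin-dependent kinases, had a hyperosmotic fall of −4.10 ± 0.31 on the log2 scale (adjusted p = 5.72e-06), from 18.5 to 1.08 CPM. It was called lower with Nfat5-1-siRNA (−2.46, adjusted p = 0.00627), and its value with Nfat5-2-siRNA, −1.50, did not pass (adjusted p = 0.0631, or 0.00255 with the replicate block). Means of CDKN3 were only 0.193 CPM with Nfat5-1-siRNA and 0.38 CPM with Nfat5-2-siRNA, so its values with the constructs rest on few counts. Of 25 listed S phase genes, 4 had an identifier through the list already called in these comparisons: GINS4, POLD1, RFC2 and DUT. All 4 were called lower with each construct (4.53% and 7.38% of all genes), and all but GINS4 with hyperosmolality (9.23% of all genes; for GINS4 adjusted p = 0.108, or 0.0032 with the replicate block and 0.0271 in DESeq2). VRK1, ANAPC4, TFDP2, BTG1, CCND2 and ZMAT3 had the opposite hyperosmotic direction to the 6 genes. They were called higher (11.3% of all genes), BTG1 by 1.77 and TFDP2 by 2.63 on the log2 scale. With Nfat5-2-siRNA VRK1, ANAPC4, TFDP2 and BTG1 were called lower (7.38% of all genes). CCND2 and ZMAT3 had positive values there that did not pass. With Nfat5-1-siRNA BTG1 and TFDP2 were called lower, and VRK1 (−0.82, adjusted p = 0.0527, or 2.32e-06 with the replicate block) and ANAPC4 did not pass. Of 9 listed growth arrest genes, BTG1, ZMAT3 and SFN had an identifier, and their directions differed. ZMAT3 rose by 0.93 with hyperosmolality (adjusted p = 0.00878). Its values with the constructs, 0.74 and 0.59, did not pass (adjusted p = 0.0725 and 0.195). Both passed with the replicate block (adjusted p = 0.000949 and 0.0178). SFN was at 80.8, 52.8, 119.5 and 240.5 CPM in the 4 groups and rose with each construct, by 1.18 and 2.19. The constructs differed for SFN by 1.01 on the log2 scale (adjusted p = 0.0623, or 1.06e-08 with the replicate block), larger in value than the gap of any of the 6 genes.

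**Figure D4:**
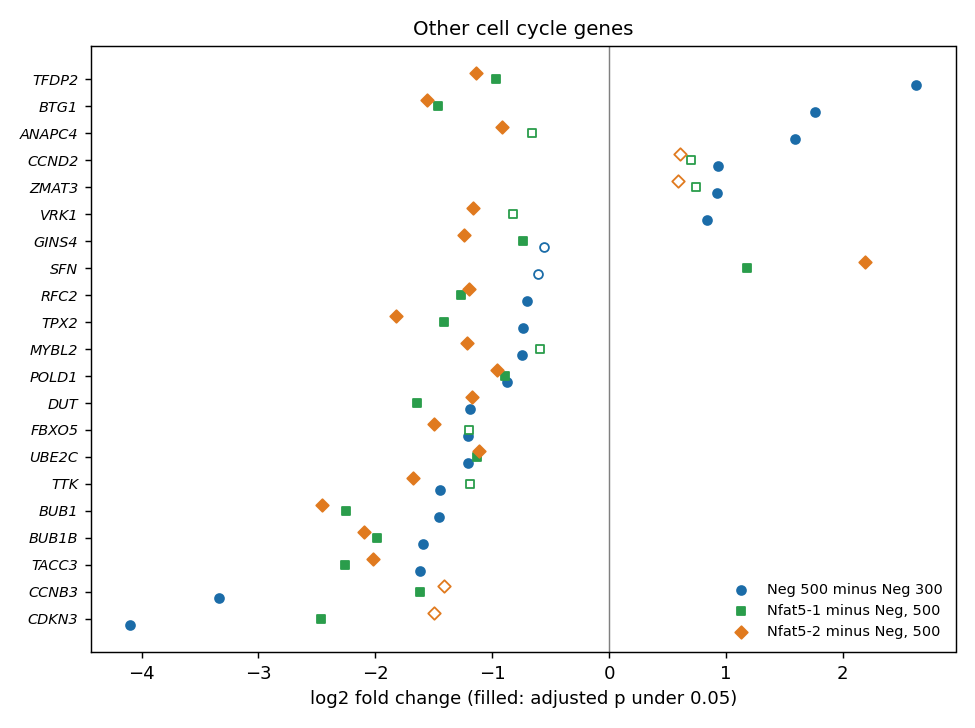
Log2 fold changes of the 21 other cell cycle genes with an identifier, sorted by the hyperosmotic value, for hyperosmolality (circles) and the constructs Nfat5-1 (squares) and Nfat5-2 (diamonds). Filled symbols passed an adjusted p of 0.05. Of the 21 genes, 14 have negative values in all 3 comparisons.

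The genes whose pattern was most like that of the 6 were taken from 9198 other tested genes, those that averaged 10 CPM or more, by Pearson's r over the 8 libraries with the mean centred log2 CPM of the 6. The points share their libraries and fall into 4 groups, so r is a description only. The 10 highest were KIF20A (r = 0.998), BUB1 (0.998), TMPO (0.998), EEF2 (0.997), BUB1B (0.996), TACC3 (0.996), ENSCAFG00000001044 (0.996), GTSE1 (0.995), IDH2 (0.995) and RFC2 (0.995). KIF20A, a kinesin of cytokinesis, had log2 fold changes of −1.35, −2.12 and −2.34, and GTSE1, a microtubule-binding protein of G2 and mitosis, −1.14, −1.90 and −2.08. Genes best known for roles outside mitosis were among the 10: EEF2, the translation elongation factor, had log2 fold changes of −0.54, −0.77 and −0.83, and IDH2, the mitochondrial isocitrate dehydrogenase, −1.14, −1.86 and −1.83. Among the 6 genes themselves, r of each with the mean of the other 5 ran from 0.971 for CCNA2 to 0.990 for CCNB2.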

How the data were processed

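RNA of 8 MDCK I libraries was analysed. The authors mapped paired-end reads with HISAT2 2.0.5 to CanFam3.1 and deposited raw counts per gene, obtained by running featureCounts 1.5.1 over Ensembl 92 exons, without strand. Per the file headers no fragment option was set, so mates seem to have been counted separately and counts are not all independent. The deposited gene lengths, in bases, gave the levels per kilobase. Counts were fitted for all 8 libraries together with edgeR 4.0.16 (R 4.3.3), TMM normalization and the quasi-likelihood test, for genes with 5 or more counts in all. An adjusted p-value under 0.05 (Benjamini-Yekutieli over all 19835 genes) was called, tests were two-sided, and the SE was computed from the F statistic. The study's method, DESeq2 (1.42.0), was an alternative, beside other scalings, filters, adjustments and sample sets.

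Replicate numbers pair the libraries, because the labels give passage 15 for replicate 1 and passage 17 for replicate 2 in every group. The passage differences of the groups were correlated across 12424 genes, with the lowest r at 0.123 and the highest at 0.465 among 6 pairs of groups, and the common dispersion was 0.032, or 0.0168 with passage as a replicate block.

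The 6 genes and the lists of cell cycle genes were chosen with earlier results of these data known. The rule for named genes covered the 6 genes, their partners and regulators among the listed genes, the 10 genes most like them and the osmolyte genes. Depth was 34564103 to 46043788 counts per library, and each group had 2 replicates. On simulated counts for the hyperosmotic comparison with 200 changed genes among 19471, edgeR recovered 111 of 111 4-fold and 39 of 89 2-fold changes and called 1 unchanged gene. The changed genes there were drawn from well-counted genes, all genes had the same dispersion, and no passage effect was simulated for that fit. The measured comparison called 4077 of 19835 genes, a far larger share, so these recovery and false-call rates do not carry over to it. Symbols were paired with identifiers through the study's supplementary list; its values were not used. RefSeq sequences and promoter motifs were not used here.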

Additional observations from a re-analysis of the deposited data

How the results depend on the processing

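The precision rests on 2 passages per group. The 6 genes kept their negative direction with hyperosmolality and with each Nfat5-siRNA under every alternative tried, and against Neg-siRNA (300 mOsm) all 6 were called under every alternative. DESeq2's size factors in place of TMM shifted the median log2 fold change of all genes by at most 0.05.

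With passage as a replicate block, the genes called numbered 6565 for hyperosmolality (4077 without it), 4264 for Nfat5-1-siRNA (1572), 5168 for Nfat5-2-siRNA (2390) and 979 between the constructs (8). The block added calls of CDC25C with hyperosmolality (−0.95) and of CDCA8 with Nfat5-1-siRNA (−0.65) and Nfat5-2-siRNA (−0.67), and changed no other call of the 6 genes.

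The Benjamini-Hochberg adjustment called 7033, 4033, 5250 and 186 genes in the same order, and 7979 and 8138 against Neg-siRNA (300 mOsm) with Nfat5-1-siRNA and Nfat5-2-siRNA. Without a filter on low counts 2866, 3760 and 337 were called with Nfat5-1-siRNA, with Nfat5-2-siRNA and between the constructs. DESeq2 called 2682 with Nfat5-1-siRNA and 213 between the constructs, and DESeq2's size factors in edgeR 34 between the constructs. A fit of only the 4 libraries compared called 1565 with Nfat5-2-siRNA, where it lost CDC25C (−1.57, adjusted p = 0.0549), and 0 between the constructs, as did filterByExpr.

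With 1 library left out, where the lone library of a group is assumed to vary like the others, the genes called ranged from 2384 to 4157 for hyperosmolality, 159 to 1620 for Nfat5-1-siRNA, 954 to 2272 for Nfat5-2-siRNA, 0 to 38 between the constructs, and 2540 to 5103 and 3319 to 4945 against Neg-siRNA (300 mOsm). Of the 6 genes, 3 to 5, 2 to 5 and 4 to 5 were called in the first 3 of these comparisons.

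Between the constructs, where none of the 6 was called, the values of PLK1 (−0.08), CCNA2 (0.30), CDC25C and CDCA8 changed sign under some alternatives. CDCA8 (−0.02) became 0.00722 with DESeq2's size factors and in DESeq2, 0.0272 with only the 4 libraries compared, and up to 0.14 with 1 library left out. CDC25C (−0.04) became 0.00305 with only the 4 libraries. With 1 library left out, PLK1 ranged from −0.209 to 0.0528, CCNA2 from −0.14 to 0.93, CDC25C from −0.17 to 0.10, and CDCA8 from −0.16 to 0.14. The cause of these changes of sign was not tested.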
